A study of Caenorhabditis elegans with 3 samples.

Results

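The math and bath genes of Caenorhabditis elegans encode proteins with a MATH domain (meprin and TRAF homology), a fold that binds other proteins. A bath gene is named for a BTB domain beside the MATH domain. The members described here are the genes whose symbol is math or bath followed by a number and which have a spot of their own on the array. They number 76 of the 15119 genes that had a value on all arrays, 44 of them math genes and 32 bath genes, on 77 spots. The membership rests on the symbol alone, so whether each product holds a BTB domain was not checked. A RefSeq gene table (assembly WBcel235) lists 92 such genes, 49 math and 43 bath, of which 16, bath-40 among them, have no spot of their own in the table used here and were not analysed.

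Hermaphrodites at the L4 larval or young adult stage, labelled TP06, gave 3 RNA preps. Each prep was hybridised to an array of its own together with a shared reference, mixed and wild-type, and the staged RNA was always in channel 2. Channel and stage effects therefore cannot be told apart. The labels name no strain, allele, treatment or hours of age for the staged animals. What went into the reference is not given in the sources used here, and nothing says that the preps were separate cultures, so the p-values measure the spread between preps, which may be partly technical. Values are deposited log2 ratios. No source states which channel is on top. Positive values are read here as staged RNA above reference, which is likely but not certain; if the ratio ran the other way, each direction given here would be reversed. Whole animals were measured, so fewer cells of a type and less RNA per cell cannot be told apart.

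In a Cullin-3 ubiquitin ligase, the BTB domain holds the cullin and the MATH domain holds the protein to be marked for breakdown. The best studied example in the worm is MEL-26, which brings the microtubule-severing katanin MEI-1 to the ligase once meiosis of the oocyte is over. Most other math and bath genes have no known substrate, and many stand side by side on chromosome II in groups that arose by duplication in the nematode lineage. A deviant member is math-33, whose product is a ubiquitin-specific protease that removes ubiquitin rather than attaching it.

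The stage labels were set against marker genes. Of 4 adult cuticle collagens, 3 were higher, and of 30 major sperm protein genes, 29. The 14 oocyte genes measured had medians of 1.43, -0.08 and -0.19 in preps 1, 2 and 3, so prep 1 stood apart for oocyte RNA, and 1 of the 14 was higher. Of 6 early embryonic genes 2 were lower and the other 4 did not pass. The 76 members had no missing value on any array. The files give no intensities, so a member near 0 may be a dim spot, and precision is limited by having 3 arrays.

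Most MATH and BATH genes lay close to the reference. The few that differed were mainly bath genes, whose called share of 25.0% was near that of all genes. Tested with limma against a ratio of 1 over all 15119 genes, with Benjamini-Hochberg adjustment at a threshold of 0.05, 10 of the 76 members passed, 4 higher and 6 lower. This is 13.2% of members, below the 20.7% of all genes that passed; 11.3% of all genes were higher and 9.37% lower, against 5.26% and 7.89% of members. Without prep 1, 5 of the 10 still passed and no other member did, while the share of all genes that passed fell to 11.6%. At an unadjusted p under 0.05 there were 22 of the 76 members, beside 5092 of the 15119 genes. The mean log2 ratio lay within 0.5 of 0 for 51 members (67.1%), against 60.4% of all genes. In preps 1, 2 and 3 the median member stood at -0.09, -0.21 and 0.25, averaging -0.01 ± 0.24 (SD, n = 3), beside 0.04, -0.09 and -0.06 for all genes. The members' medians thus lay further apart between preps than those of all genes. The median SD of a member over the arrays was 0.44, and that of all genes 0.39.

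**Figure D1:**
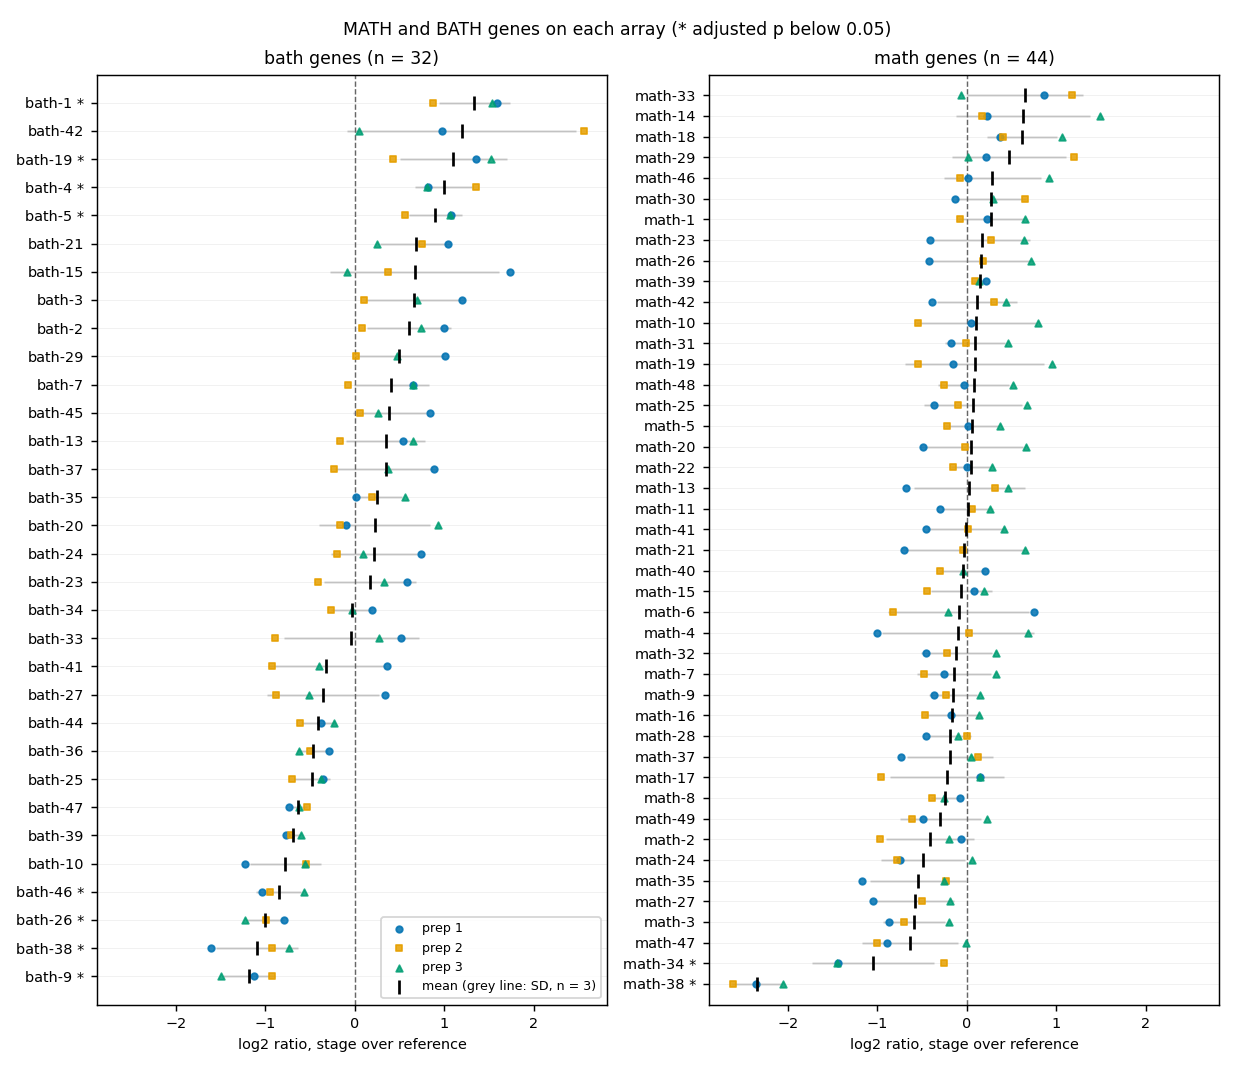
Log2 ratio of each of the 32 bath genes (left) and 44 math genes (right) on the arrays of preps 1, 2 and 3 (points), with the mean (black bar) and SD (grey line, n = 3); an asterisk marks an adjusted p below 0.05. The bath genes spread from 1.34 to -1.18 with 8 marked, while 42 of the 44 math genes have a mean within 1 of 0, and math-38 lies apart at -2.34.

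The highest member was bath-1, on the genomic clone F59H6 of chromosome II. It had log2 ratios of 1.59, 0.88 and 1.54 in preps 1, 2 and 3. All 3 arrays were clearly above 0, and the mean of 1.34 ± 0.40 is a 2.52-fold difference (limma adjusted p = 0.00378). The gene bath-19, on the same clone, stood at 1.36, 0.42 and 1.52. Prep 2 was its low array, and the mean was 1.10 ± 0.59 (limma adjusted p = 0.0167). The gene bath-5, also of F59H6, stood at 1.07, 0.56 and 1.07, a mean of 0.90 ± 0.30 (limma adjusted p = 0.0253). For these 3 genes of F59H6, prep 2 gave the lowest value. The gene bath-4, of the clone F52C6, had its highest value in prep 2 instead, with 0.81, 1.36 and 0.81 and a mean of 0.99 ± 0.32, 1.99-fold (limma adjusted p = 0.0164). Of these 4 genes, bath-1 passed whichever prep was left out. The call of bath-19 was lost without prep 1 (0.97) or prep 3 (0.89), that of bath-5 without prep 1 (0.81) or prep 3 (0.82), and that of bath-4 without prep 2 (0.81).

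The second highest mean belonged to bath-42, on chromosome III. Its values were 0.97, 2.56 and 0.04 in preps 1, 2 and 3. Prep 2 was high and prep 3 near 0, and the mean of 1.19 ± 1.27 did not pass (limma adjusted p = 0.0510). Without prep 3 it stood at 1.77 and passed, and it also passed with 1 spot per gene for all genes or with arrays weighted by their quality (1.28). It did not pass in the other fits. There it stood at 1.30 without prep 1 and at 0.51 without prep 2. With centring within print blocks (runs of consecutive spots, a layout inferred and not stated) it stood at 0.94. A low value in prep 3 was also seen for math-33, the ubiquitin protease gene on chromosome V. Its values were 0.86, 1.18 and -0.07, a mean of 0.65 ± 0.65, the highest of the math genes, and it did not pass (limma adjusted p = 0.133). Without prep 3 it stood at 1.02 and passed, and with centring within print blocks it passed at 0.76. In the other fits math-33 did not pass, with 0.55 without prep 1 and 0.39 without prep 2. In bath-15, on chromosome III, prep 1 was high at 1.73, with 0.37 in prep 2 and -0.09 in prep 3. This order of the preps is that of the oocyte marker medians above; a link was not tested. The mean of 0.67 ± 0.95 did not pass (limma adjusted p = 0.183), and without prep 3 it passed at 1.05.

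The lowest member by far was math-38, of the clone T07H3 on chromosome II. It stood at -2.36, -2.62 and -2.06 in preps 1, 2 and 3. Every array was below -2, and the mean of -2.34 ± 0.28 is a 5.08-fold lower level (limma adjusted p = 9.03e-05). No other member had a mean further from 0 than 1.34 in either direction. The next lowest, bath-9 of the clone Y49F6C, stood at -1.12, -0.93 and -1.49, a mean of -1.18 ± 0.29 or 2.27-fold lower (limma adjusted p = 0.00624). The calls of math-38 and bath-9 held whichever prep was left out. The gene bath-38, of the clone F52H3, was lowest in prep 1, with -1.60, -0.93 and -0.73. Its mean was -1.09 ± 0.46 (limma adjusted p = 0.0132), and without prep 1 the call was lost (-0.83).

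The remaining 3 lower members were math-34, bath-26 and bath-46. In math-34 the arrays of preps 1 and 3 agreed at -1.44 and -1.45, and prep 2 was at -0.26. Its mean was -1.05 ± 0.68 (limma adjusted p = 0.0254), and the call was lost without prep 1 or without prep 3 (-0.85 in either case). The gene bath-26 was at -0.79, -0.99 and -1.22, a mean of -1.004 ± 0.22 (limma adjusted p = 0.0137), which was lost without prep 3 (-0.89). The gene bath-46 was at -1.04, -0.95 and -0.57, a mean of -0.85 ± 0.25 (limma adjusted p = 0.0305). It did not pass without prep 1 (-0.76) or prep 2 (-0.80). Both lie on T07H3, as math-38 does. In all, 3 of the 10 calls (bath-1, bath-9 and math-38) held in each of the leave-out fits.

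Called genes made up a share of the bath genes near that of all genes and a smaller share of the math genes. Of the 32 bath genes 8 passed (25.0%), 4 higher and 4 lower, and of the 44 math genes 2 (4.55%), both lower, beside 20.7% of all genes. The difference between these shares was not tested. Without prep 1 the counts were 4 and 1, and 11.6% of all genes passed. The same sign on all 3 arrays was seen for 21 bath genes (65.6%) and 13 math genes (29.5%), and for 53.0% of all genes. The mean lay within 0.5 of 0 for 16 bath genes and 35 math genes. The median of the bath genes was 0.53, -0.22 and 0.17 in preps 1, 2 and 3, and that of the math genes -0.28, -0.19 and 0.27. The difference, bath minus math, was therefore 0.80 in prep 1 but -0.03 and -0.10 in preps 2 and 3, so the medians separated the groups in prep 1 alone. Prep 1 is also the prep with high oocyte markers; their part in this difference was not tested.

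The math genes shared an array pattern more than a direction. In 32 of the 44 math genes (72.7%) the highest value came from prep 3, against 32.8% of all genes, and 31 of the 44 were below 0 in prep 1 but 12 in prep 3. In the bath genes prep 1 gave the highest value for 19 of 32 (59.4%), against 37.9% of all genes. Position on the array moved in part with this. Of the 77 member spots 71 lie in the first 16 of 32 supposed print blocks. Blocks 8, 12, 14 and 16 hold 9, 6, 14 and 9 member spots. The median of all spots in these blocks was highest in prep 3, at 0.25, 0.49, 0.10 and 0.43. In others, such as blocks 2 and 6 with 6 and 7 member spots, it was highest in prep 1, at 0.13 and 0.31. The shares of all genes, taken over the whole array, are therefore not matched to the members for position. Each math spot was given the median of its block, and the median of these block medians was 0.03, -0.08 and 0.11 in preps 1, 2 and 3. After centring within blocks the math medians were -0.39, -0.13 and 0.08, against -0.28, -0.19 and 0.27 before. Prep 1 was lowest and prep 3 highest both times, with prep 3 nearer 0 after centring. The counts by gene were not repeated after centring, and the part of array position was not tested.

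Neighbouring genes were described together because 65 of the 76 members lie on chromosome II, and 55 of these lie in a stretch of 221 neighbouring gene entries from math-38 to math-18, of 3759 entries on that chromosome. Sequence names give the genomic clone of each gene, and 12 clones carry 3 or more members. This grouping was made after the values were seen and has no test. Near-identical copies can share signal on a spotted array, no sequences of the spots were at hand, and so neighbours are not independent measurements.

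**Figure D2:**
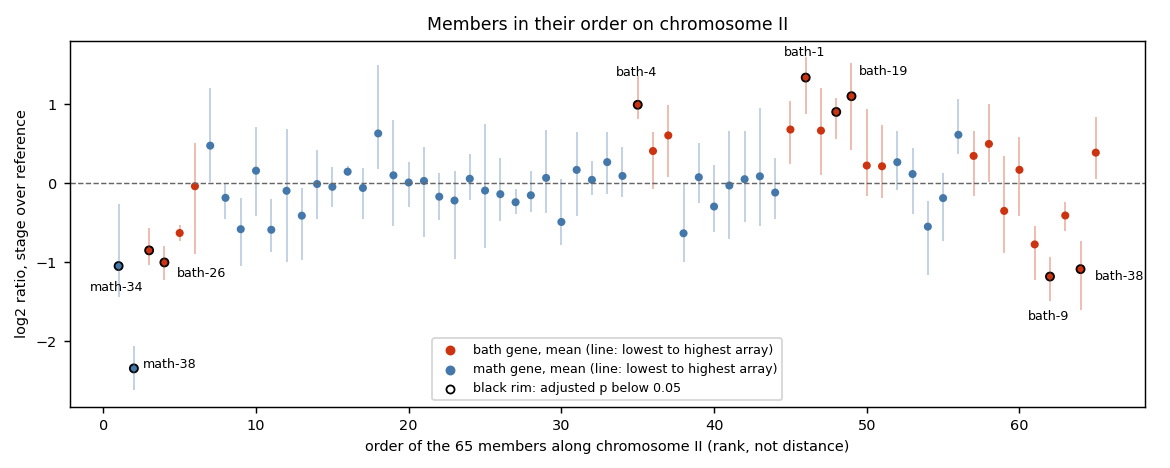
Mean log2 ratio of the 65 members on chromosome II in their order along it, as rank and not distance (points), with the range of the 3 arrays (lines); black rims mark an adjusted p below 0.05. Lower genes lie at both ends of the row, the math genes between them keep near 0, and the higher bath genes form 2 groups, around bath-4 and around bath-1.

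Bath genes of the clones F59H6 and F52C6 were above 0 nearly throughout. These are bath-1, bath-3, bath-5, bath-19 and bath-21 of F59H6, and bath-2, bath-4 and bath-7 of F52C6. Of their 24 array values 23 were positive, beside 21584 of 45357 over all genes. The exception was bath-7 in prep 2 at -0.08. Of the 8 genes 4 were higher, beside 11.3% of all genes, and 4 did not pass. The 8 genes were grouped after their values were seen, and neighbours may share signal. Both counts are therefore descriptions and not support for a shared level. The gene bath-21 was at 1.04, 0.75 and 0.25, a mean of 0.68 ± 0.40. The gene bath-3 was at 1.20, 0.10 and 0.69, a mean of 0.66 ± 0.55. The gene bath-2 was at 0.99, 0.08 and 0.74, a mean of 0.60 ± 0.47, and bath-7 at 0.65, -0.08 and 0.65, a mean of 0.41 ± 0.42. In 6 of the 8 genes prep 2 was lowest. The median of the 8 was 1.06, 0.49 and 0.77 by prep, averaging 0.77 ± 0.28, and 0.63 without prep 1. After centring within print blocks it was 0.98, 0.72 and 0.73.

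The math genes of the same clones did not share this level. The pseudogene math-32 of F59H6 had a mean of -0.12 ± 0.40, and math-30, also a pseudogene, and math-31 of F52C6 had means of 0.27 ± 0.39 and 0.09 ± 0.33. Their median was -0.18, -0.01 and 0.32 in preps 1, 2 and 3. Averaged over the preps, genes of other families on the clones had medians between those of the bath and math genes. In prep 2 those of F52C6 had a median of -0.07, below that of the math genes. On F52C6 the neighbours F52C6.4 (0.86 ± 0.72) and F52C6.2 (0.62 ± 0.54) stood above bath-2 (0.60) and bath-7 (0.41). The other neighbours there stood below both. All means of these genes of other families were also above 0. These means ran from 0.09 to 0.94 on F59H6 and from 0.09 to 0.86 on F52C6. The 5 measured on F59H6 had a median of 0.34 ± 0.21, with F59H6.3 higher at 0.94 ± 0.40. The 6 measured on F52C6 had a median of 0.30 ± 0.32. Of these, 0 passed limma's test (2 at an unadjusted p under 0.05), beside 20.7% of all genes. The difference between the bath genes and these neighbours was not tested.

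The 4 members on T07H3 were below 0 on every array. Beside math-38, bath-26 and bath-46 stood bath-47, whose values of -0.73, -0.54 and -0.63 agreed closely but did not pass at a mean of -0.63 ± 0.10 (limma adjusted p = 0.0861). The median of the 4 genes was -0.92, -0.97 and -0.93 in preps 1, 2 and 3 (-0.94 ± 0.03). The SD of this median was the lowest of the clones with 3 or more members. The genes themselves varied more, with SDs from 0.10 in bath-47 to 0.28 in math-38. From prep 1 to prep 3 bath-26 fell from -0.79 to -1.22, while bath-46 rose from -1.04 to -0.57. The next gene along, bath-33 on the neighbouring clone C08E3, stood at 0.51, -0.90 and 0.27. Its arrays lay on either side of 0, with a mean of -0.04 ± 0.75. The lectin genes clec-20 and clec-21, also of T07H3, were at -0.70 ± 0.73 and -0.32 ± 0.64 and did not pass.

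On Y49F6C, bath-10 lies next to bath-9 and was likewise below 0, at -1.23, -0.54 and -0.55. Its mean of -0.78 ± 0.39 did not pass (limma adjusted p = 0.0532), but it passed with centring within print blocks (-1.03), with arrays of equal scale (-0.75) and with trended, robust variances. The pseudogene bath-23 on the same clone was at 0.59, -0.41 and 0.33 and lay on either side of 0. On chromosome V, bath-39 was steady at -0.77, -0.71 and -0.60, a mean of -0.69 ± 0.09 (limma adjusted p = 0.0617), and it passed with centring within print blocks (-0.86) and with trended, robust variances (-0.69). Neither bath-10 nor bath-39 passed in the other fits.

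The largest group, 12 math genes of the clone C16C4 (math-5 to math-11 and math-13 to math-17), stayed around 0. Their means ran from -0.24 ± 0.16 in math-8 to 0.63 ± 0.75 in math-14. Of the 12, 0 passed limma's test, beside 20.7% of all genes. At an unadjusted p under 0.05 there were 0, beside 5092 of the 15119 genes. Of their 36 array values 19 were positive. The value of math-14 rests on prep 3, with 0.22, 0.17 and 1.49 in preps 1, 2 and 3. By prep the median of the 12 was -0.03, -0.42 and 0.22, averaging -0.08 ± 0.33. Means near 0 were also found on other math clones. On C46F9, math-22 to math-25 ran from -0.49 to 0.17, on T08E11 math-39 to math-41 from -0.05 to 0.14, and on C40D2 math-19 to math-21 from -0.03 to 0.09. In C40D2 the median was -0.49 in prep 1 and 0.66 in prep 3, so means near 0 there average arrays of opposite sign.

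On 3 other math clones more values lay below 0, with no call. On C08F1, math-3 was at -0.87, -0.70 and -0.20, a mean of -0.59 ± 0.35, math-2 had a mean of -0.41 ± 0.49 and math-4 of -0.10 ± 0.85. On F36H5, math-26 to math-28 ran from -0.58 to 0.16, and on ZK250, math-47 to math-49 from -0.63 to 0.07. The pseudogene math-47 was at -0.89, -1.0 and -0.02, and without prep 3 it passed at -0.94. On B0047, which carries math-1 beside bath-20 and bath-24, the 3 means lay between 0.21 and 0.27.

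**Figure D3:**
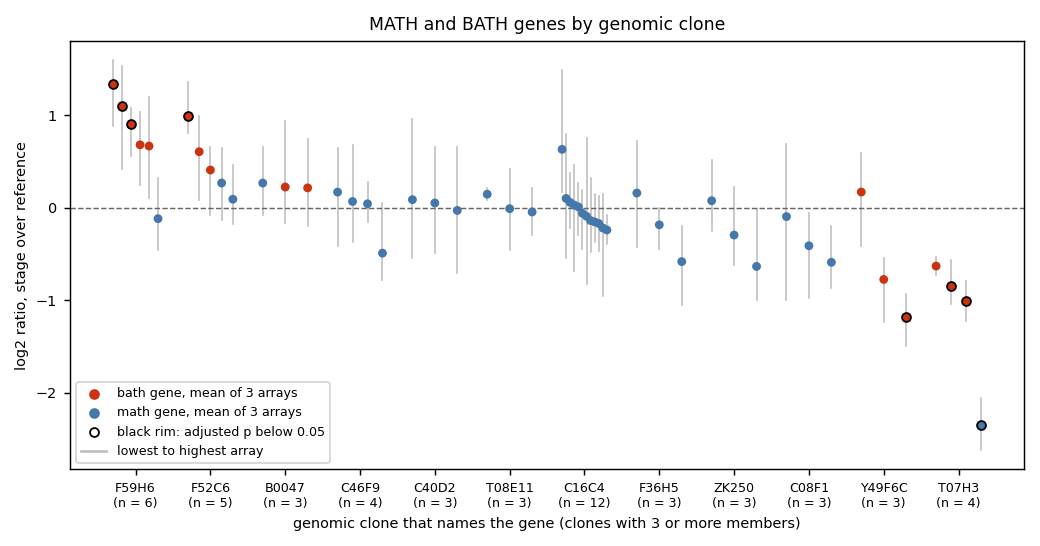
Mean log2 ratio (points) and range over the 3 arrays (lines) of the members on the 12 clones with 3 or more of them, ordered by the clone's median; black rims mark an adjusted p below 0.05. The bath genes of F59H6 and F52C6 stand above the math genes of the same clones, the 12 genes of C16C4 lie around 0, and the 4 genes of T07H3 lie below it.

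Of the members 10 are annotated as pseudogenes in the RefSeq table, and 0 of them passed limma's test, against 10 of the 66 protein-coding members; at an unadjusted p under 0.05 there were 2 pseudogenes. Their means lay between -0.63 and 0.47. Of the 11 members outside chromosome II none passed either, though 3 had an unadjusted p under 0.05. Of all genes 20.7% passed, so both groups are too small for a count of 0 to say much. Their means ran from -0.69 in bath-39 to 1.19 in bath-42. The remaining genes off chromosome II were bath-25, bath-34, bath-35 and math-46 on I, bath-41 on III, bath-37 on IV and bath-36 on V, with means from -0.48 to 0.34. The steadiest of them were bath-25 at -0.48 ± 0.20 and bath-36 at -0.47 ± 0.17, below 0 on all arrays. The gene bath-34 is the member with 2 spots. They stood at 0.30, -0.55 and 0.22 and at 0.08, 0.02 and -0.28, so the spots disagreed in sign in preps 2 and 3, and their means of -0.01 and -0.06 were close to 0. The other 10 members on chromosome II, on clones with 1 or 2 members, namely bath-13, bath-27, bath-29, bath-44, bath-45, math-18, math-29, math-35, math-37 and math-42, had means from -0.55 to 0.61 and did not pass.

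The Cullin-3 ligase, which MEL-26 serves, was looked at through the genes of its parts and partners. Whether the products of the bath genes serve it was not tested. Of 17 listed genes of the Cullin-3 ligase, of cullin activation and of katanin, a substrate, 11 were measured, and cul-3 itself was not analysed here. Of the 11, 0 passed limma's test, beside 20.7% of all genes, so they are too few for this count to say much. At an unadjusted p under 0.05 there were 4, beside 5092 of the 15119 genes. The adaptor gene mel-26 stood below 0, at -0.23, -1.21 and -0.96 in preps 1, 2 and 3, a mean of -0.80 ± 0.51 (limma adjusted p = 0.0557). It passed without prep 1 (-1.08), with centring within print blocks (-0.74), with arrays of equal scale (-0.83), with trended, robust variances (-0.80) and with array weights (-0.90). Without prep 2 (-0.60), without prep 3 (-0.72) and with median centring (-0.76) it did not pass. Its substrate gene mei-1 stood above 0 at 1.25, 0.45 and 0.25, a mean of 0.65 ± 0.53 that did not pass. The other katanin subunit gene, mei-2, was at 0.34 ± 0.69. In prep 1, where oocyte markers were high, mei-1 and mel-26 had their highest values; a link was not tested.

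Genes of the ligase core and of its activation by the ubiquitin-like protein NED-8 had means above 0, none past the threshold. The RING subunit gene rbx-1 was at 0.61 ± 0.47, the exchange factor gene cand-1 at 0.60 ± 0.21 and the NEDD8 ligase gene dcn-1 at 0.52 ± 0.18, and all 3 genes were positive on every array. The others, ned-8, rfl-1, ula-1, csn-2 and csn-5, were below 0 in prep 2. Over the 11 listed genes measured, mel-26 and katanin included, the median was 0.65, -0.12 and 0.25 in preps 1, 2 and 3. The lowest after mel-26 was csn-5, the catalytic subunit of the COP9 signalosome that removes NED-8, at 0.07 ± 0.61. Of the 5 other cullin genes 0 passed limma's test (0 at an unadjusted p under 0.05), beside 20.7% of all genes. They are too few for this count to say much. The highest was cul-1 at 0.36 ± 0.63, then cul-2 at 0.10 ± 0.62. The lowest were cul-4 at -0.06 ± 0.37 and cul-5 at -0.41 ± 0.36. The TRAF gene trf-1, whose product also has a MATH domain, was at -0.31 ± 0.39 and did not pass.

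Of 24 other BTB genes 3 passed (12.5%), 2 higher and 1 lower, beside 20.7% of all genes. The kelch gene kel-10 was highest at 1.62, 1.15 and 2.18, a mean of 1.65 ± 0.52 (limma adjusted p = 0.00140), and stood above every bath gene. The gene btb-20 was higher at 1.31, 0.36 and 1.09, a mean of 0.92 ± 0.50 (limma adjusted p = 0.0312). The gene btb-16 was lower at -1.20, -0.70 and -1.31, a mean of -1.07 ± 0.32 (limma adjusted p = 0.0112), and btb-21 next to it in rank was at -0.77 ± 0.61 and did not pass. The call of btb-20 was lost without prep 1 (0.72) or prep 3 (0.84) and that of btb-16 without prep 1 (-1.01), while btb-21 passed without prep 3 (-1.10). The kelch gene kel-8, whose product is a substrate receptor of the Cullin-3 ligase in neurons, was above 0 on all arrays at 0.74 ± 0.28 (limma adjusted p = 0.0557). The medians of these 24 genes were 0.03, -0.19 and 0.12 in preps 1, 2 and 3, beside 0.04, -0.09 and -0.06 for all genes.

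**Figure D4:**
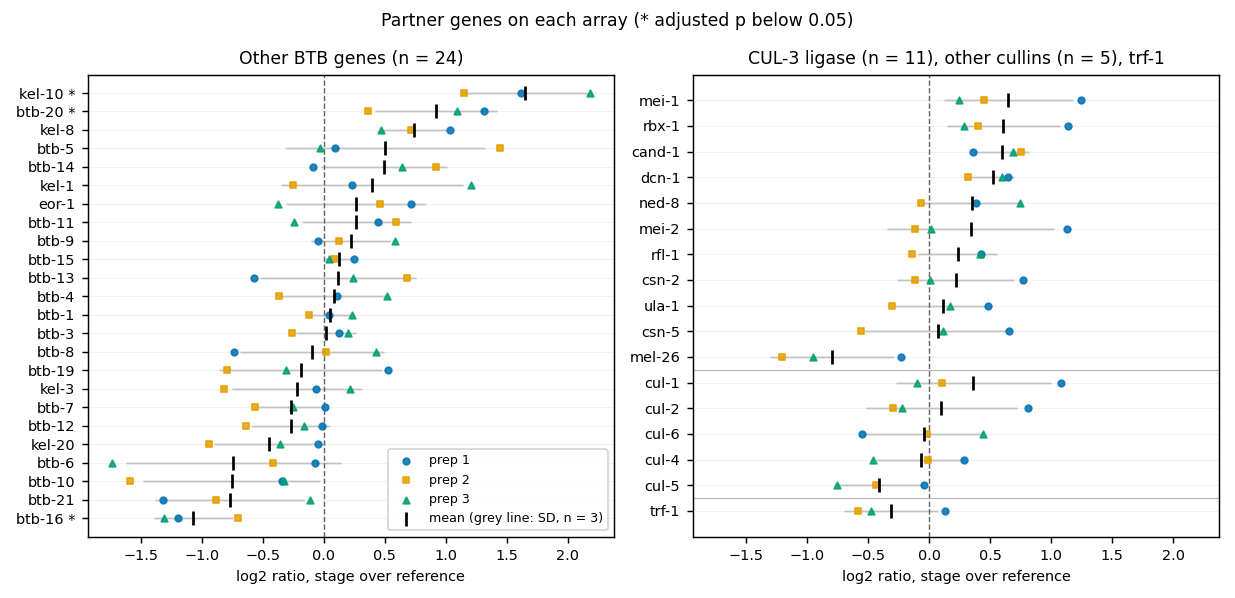
Log2 ratio of 24 other BTB genes (left) and of 11 genes of the Cullin-3 ligase, 5 other cullins and trf-1 (right, separated by lines) on the arrays of preps 1, 2 and 3, with mean (black bar) and SD (grey line, n = 3); an asterisk marks an adjusted p below 0.05. On the left kel-10 and btb-20 are marked above 0 and btb-16 below it; on the right no gene is marked and mel-26 is lowest at -0.80.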

How the data were processed

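The deposited values are log2 ratios, 1 for each of 20000 spots on an array. How the authors scanned, filtered and normalized the arrays is not given in the sources used here. That the base is 2 was inferred from the values: taken back from log2, all ratios under 0.6 were whole multiples of 0.001 within 1% of a step. Gene symbols came from the platform annotation, updated by gene identifier (RefSeq, WBcel235); bath-34 and bath-35 had no match and kept theirs. A single gene was listed for 15655 spots. The 198 spots with several genes and the 4147 with none were not used. Spots of a gene were averaged, and the 15119 genes with values on all arrays were tested two-sided against 0 by lmFit and eBayes of limma 3.58.1 in R 4.3.3, with Benjamini-Hochberg adjustment. The spread of the reference RNA itself is not in this test. The fit was tested on simulated data. The members and lists were chosen with earlier results of these data known. Named by rule were the called members, the 5 highest and 5 lowest, math-33, bath-42 (bath-40 and bath-43 were in the rule but not analysed here) and bath-34 for its 2 spots, and of each list the called genes and the 2 highest and 2 lowest. Other genes were chosen after their values were seen, as was the grouping by clone. Alternatives changed centring, scale, spots, missing values, variances, weights and thresholds, and left out each prep.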

Additional observations from a re-analysis of the deposited data

How the results depend on the processing

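No paired analysis was possible because the arrays form 1 group. Of the 10 called members, all 10 also passed with median centring, print-block centring, equal scale, a value on at least 2 arrays, 1 spot per gene, trended and robust variances, and array weights, where the total was 10 to 13. Leaving out a prep gave 5 to 10 called members, 4 to 7 of them bath and 1 to 3 math genes. In those fits 11.6% to 19.2% of all genes passed. An adjusted p threshold of 0.01 left 3 members. An unadjusted 0.05 gave 22 members, beside 5092 of all 15119 genes. Of the ligase, cullin, TRAF and other BTB genes 3 were called, against 6 with print-block centring and 5 with trended, robust variances, and 2 to 4 with a prep left out. The members' median ran from -0.15 to 0.08 over all settings. The T07H3 median was -0.90 with median centring and -1.01 with print-block centring. Genes near 0 changed sign without a call, and the cause was not tested. The mean of bath-34 was 0.00043 with median centring, 0.11 with print-block centring and -0.15 to 0.0776 without a prep. Array weights gave -0.0382 for csn-5 and -0.0182 for cul-2, and print-block centring -0.0113 for cul-2. Without a prep csn-5 ran from -0.22 to 0.38, cul-2 from -0.26 to 0.30 and cul-4 from -0.24 to 0.13. Calls at the edge (bath-10, bath-39, bath-42, math-33) cannot be settled with 3 arrays and no intensities.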

Other observations

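A pair of spots carries a family gene together with other genes and entered no comparison. The spot shared by math-49, math-23 and math-50 stood at -0.38, 0.02 and 0.77 in preps 1, 2 and 3, a mean of 0.14 ± 0.58. The spots of math-23 and math-49 themselves stood at -0.41, 0.27 and 0.64 and at -0.50, -0.62 and 0.23. The spot shared by bath-28 and F14D2.8 stood at 0.46, -0.28 and -0.16, a mean of 0.00485 ± 0.39.

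Between pairs of arrays, Pearson's r over the 76 members lay between 0.54 and 0.57, against 0.65 to 0.68 across all 15119 genes. Spearman's rank correlation for the members was 0.46 (preps 1 and 2), 0.45 (preps 1 and 3) and 0.60 (preps 2 and 3). For all genes it was 0.58, 0.57 and 0.58, so the members were not lower for preps 2 and 3. Within the bath genes Pearson's r was 0.59 to 0.76 and within the math genes 0.49 to 0.54. The math values include math-38, far from the rest, and were not computed without it. These are descriptions across genes, which share the arrays and the reference RNA and are not independent replicates.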
